A study of Mus musculus with 24 samples.

Results

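The ErbB receptor tyrosine kinases and their ligands were followed as a family of 10 genes, taken by name out of the 53465 genes in the table of counts. The 4 receptors were Egfr, Erbb2, Erbb3 and Erbb4, and the 6 ligands were Areg (amphiregulin), Ereg (epiregulin), Hbegf (heparin-binding EGF-like growth factor), Tgfa (transforming growth factor alpha), Btc (betacellulin) and Nrg1 (neuregulin). Their RNA was measured in 24 tumors of 8 BURP lines, 3 tumors per line. A BURP line is a bladder tumor of a C57BL/6NTac mouse that is kept growing under the skin of hosts of the same strain and sex. Each donor was given the bladder carcinogen BBN (N-butyl-N-(4-hydroxybutyl)-nitrosamine) at 0.1% in its drinking water from 8 weeks of age, for up to 36 weeks. No line carries an engineered allele. The tumors of a line all descend from 1 donor. A subtype held by a single line therefore cannot be told apart from that donor's tumor. In fits with each line as its own group, p-values measure the spread between grafts. Where several lines were pooled, the main fits held no line term. Their p-values mix the spread between lines with that between grafts and take the tumors as independent. The study sorted the lines by the transcriptomes of these same tumors. The basal/squamous (Ba/Sq) group of 18 tumors held 3 lines of male origin (BURP-12BaSq, BURP-17BaSq, BURP-18BaSq) and 3 of female origin (BURP-21BaSq, BURP-24BaSq, BURP-25BaSq). The male line BURP-16SR (stroma-rich) and the male line BURP-19NE (neuroendocrine-like) stood alone with 3 tumors each. Whether the sequenced hosts had been given cisplatin is not stated in the sources used here.

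A signaling cascade starts when an EGF family ligand, made as a membrane protein and cut free by proteases, binds an ErbB receptor and makes it pair with a second one. Erbb2 binds no known ligand and Erbb3 has little kinase activity, so both work as partners of other receptors. Egfr binds Areg, Ereg, Hbegf, Tgfa and Btc, and Erbb3 and Erbb4 bind Nrg1. The paired kinases feed the Ras-ERK and PI3K-Akt pathways. In the urothelium and in the basal layer of squamous epithelia this family supports growth and repair.

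The depth was 9295708 to 25370320 counts per tumor, with a median of 17693147. Levels are given as CPM, counts scaled to the size of the library, after TMM normalization, which also corrects for library composition. A count of 3 corresponded to 0.106 to 1.34 CPM. Marker genes are given for the labelled subtypes. They are not an independent check, since the study sorted the lines by these same transcriptomes. The summed level of 10 basal and squamous genes was 11280 to 23830 CPM in the Ba/Sq tumors, 13.1 to 41.6 CPM in BURP-19NE and 5.18 to 10.2 CPM in BURP-16SR. Of 8 neuroendocrine genes, 5 were tested in BURP-19NE against Ba/Sq. Ncam1 rose (log2 fold change 2.96, SE 0.62), whereas Eno2 (0.10), Syp (-0.01), Chga (-3.89) and Scg2 (-4.09) did not pass, and Chgb, Neurod1 and Insm1 were too low to be tested. In BURP-16SR 2 of these genes were called higher, Eno2 (2.70) and Scg2 (3.69). The 8 fibroblast genes summed to 7553, 20130 and 598 CPM in the 3 BURP-16SR tumors against 212 to 9846 CPM in Ba/Sq, so replicate 3 of the stroma-rich line was below the Ba/Sq median of 1115 CPM. Of the BURP-25BaSq libraries, 2 stood apart. In replicate 2, 61.9% of all counts fell on the ribosomal gene CT010467.1, and replicate 3 correlated with the BURP-21BaSq tumors at a mean r of 0.968 against 0.892 with its own line. Within the family, Ereg in that tumor (8.32 CPM) lay inside the BURP-21BaSq range of 4.37 to 9.27 CPM and Areg (14.8 CPM) just above its range of 11.1 to 14.1 CPM, whereas Hbegf (97.5 CPM) lay within its own line, above the 31.3 to 37.4 CPM of BURP-21BaSq. Tumors are mixtures of cells, so fewer cells of a type and less RNA per cell cannot be told apart in any value that follows.

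On mouse chromosome 5, 4 ligand genes lie side by side within 376 kb (GRCm38). Epgn (epigen, a related ligand) starts the row at chr5:91027464-91035215, followed by Ereg at chr5:91074622-91093646, Areg at chr5:91139599-91148432 and Btc, on the other strand, at chr5:91357261-91402994. The gaps between neighbouring genes were 39406, 45952 and 208828 bp. Tgfa lies alone at chr6:86195223-86275719. The 250 bases before the RefSeq start (GRCm38.p6) are shown for Areg, which moved together with its neighbour Ereg, for Btc, the most distant of the row, and for Tgfa, the ligand with the widest range between lines. Each is written 5′ to 3′ on the strand of the gene, and capitals mark matches to the motifs AP-1 (TGANTCA), CRE (TGACGTCA), SP1 (GGGCGG) and TATA box (TATAAA), searched on both strands.
Areg, chr5:91139349-91139598, plus strand: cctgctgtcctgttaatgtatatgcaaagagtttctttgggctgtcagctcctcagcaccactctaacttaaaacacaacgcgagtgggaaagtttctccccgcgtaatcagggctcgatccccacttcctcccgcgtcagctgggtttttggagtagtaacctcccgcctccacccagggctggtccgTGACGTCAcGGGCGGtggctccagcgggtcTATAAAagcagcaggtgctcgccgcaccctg
Btc, chr5:91402995-91403244, minus strand: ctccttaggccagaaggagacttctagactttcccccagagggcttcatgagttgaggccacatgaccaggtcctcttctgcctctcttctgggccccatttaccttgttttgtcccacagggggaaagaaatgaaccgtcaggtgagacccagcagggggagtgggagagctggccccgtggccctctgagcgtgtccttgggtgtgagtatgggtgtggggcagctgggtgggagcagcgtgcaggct
Tgfa, chr6:86194972-86195221, plus strand: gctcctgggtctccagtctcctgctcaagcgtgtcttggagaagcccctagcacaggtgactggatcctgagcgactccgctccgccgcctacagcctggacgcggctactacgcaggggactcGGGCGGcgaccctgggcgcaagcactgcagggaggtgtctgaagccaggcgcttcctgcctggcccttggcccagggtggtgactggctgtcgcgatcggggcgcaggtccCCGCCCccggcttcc

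The Areg window held a CRE match at -61 to -54, an SP1 match at -52 to -47 and a TATA match at -31 to -26, counted from the start site. A CRE is the palindrome read by CREB family factors, and a TATA box places the start of transcription. The share of all 32817 promoters with a match in a window of this length was 1.55% for CRE, 32.7% for SP1, 12.4% for TATA and 6.75% for AP-1. The Tgfa window held SP1 matches at -126 to -121 and, as CCGCCC on the other strand, at -15 to -10. The Btc window held none of the 4 motifs. Promoter entries were found for 6 of the 10 genes, and Ereg, Erbb3, Hbegf and Nrg1 were without one.

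**Figure D1:**
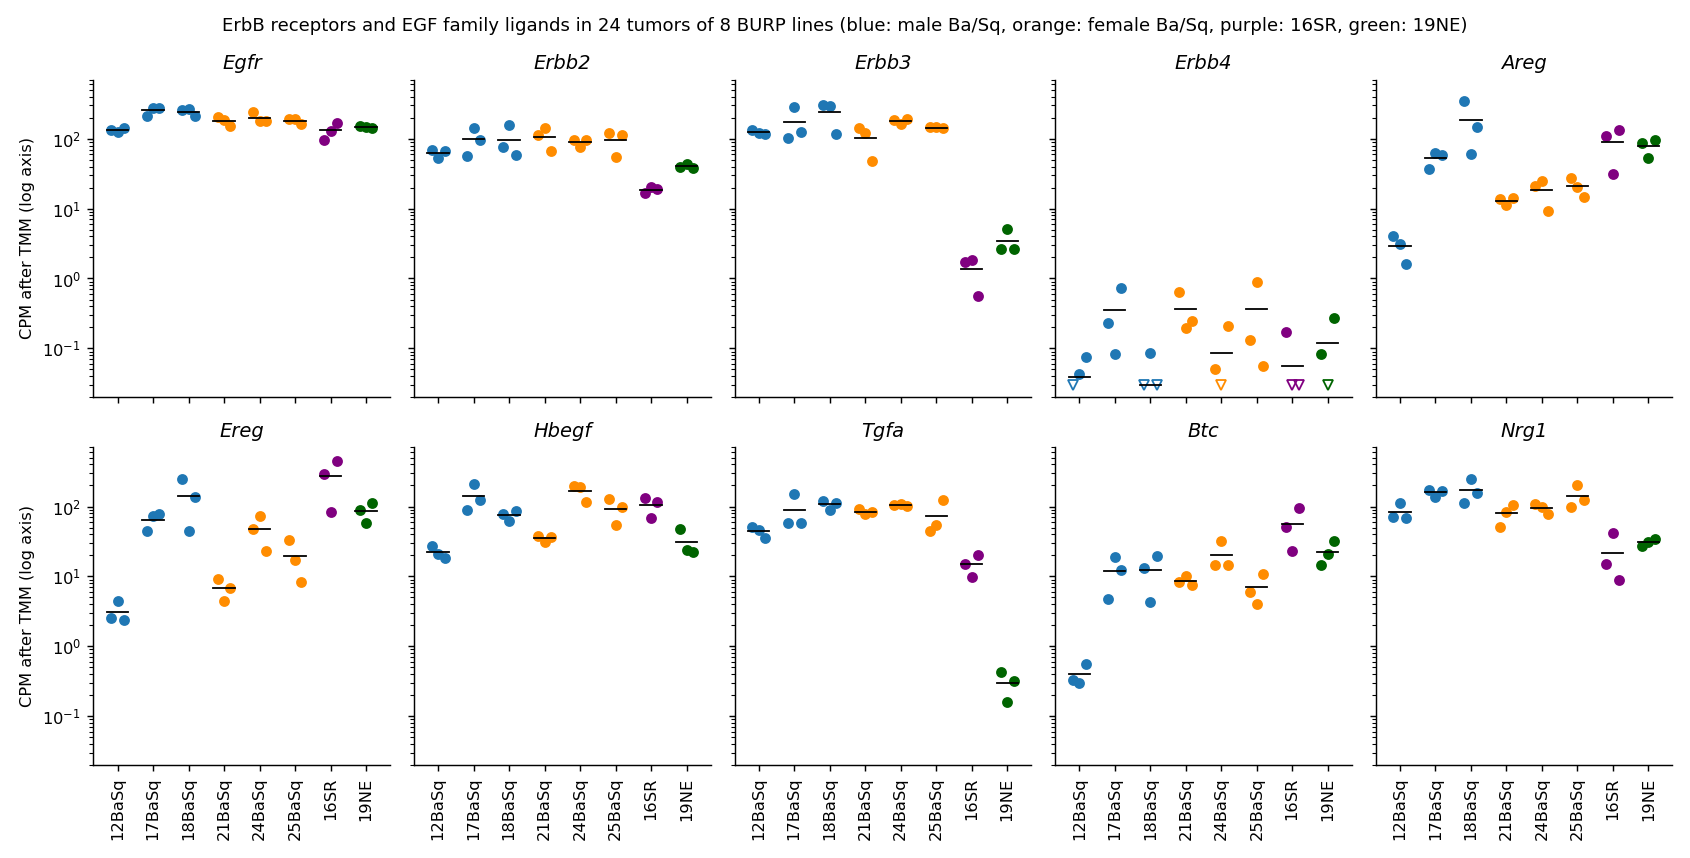
Level of each receptor and ligand in CPM after TMM scaling on a log axis, with 1 point per tumor, a bar at the mean of each line and an open triangle for a count of 0. Erbb3 and Tgfa separate BURP-16SR and BURP-19NE from the 18 Ba/Sq tumors, whereas Areg, Ereg and Btc spread mainly between Ba/Sq lines and are lowest in BURP-12BaSq.

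Among the receptors, Egfr was carried by every tumor at 97.2 to 278 CPM, and Erbb3 was nearly lost outside the Ba/Sq lines. Egfr (chr11:16752203-16918158), the receptor of most EGF family ligands, stood at 154, 147.7 and 142 CPM in BURP-19NE. The 3 BURP-16SR tumors had 97.2, 131 and 169 CPM of Egfr, and the 18 Ba/Sq tumors ranged from 124.5 to 278 CPM with a median of 191. The groups overlapped, with only replicate 1 of BURP-16SR below every Ba/Sq tumor. Neither difference passed the test, at a log2 fold change of -0.40 (SE 0.21, adjusted p = 0.150) for BURP-19NE and -0.52 (SE 0.23, adjusted p = 0.104) for BURP-16SR, by edgeR's quasi-likelihood test with Benjamini-Hochberg adjustment over all genes. By line the mean of Egfr ran from 254 CPM in BURP-17BaSq through 245 in BURP-18BaSq, 199.8 in BURP-24BaSq, 182 in BURP-25BaSq, 180.5 in BURP-21BaSq, 148.2 in BURP-19NE and 134 in BURP-12BaSq to 132 in BURP-16SR. Only BURP-19NE and BURP-12BaSq, of the neighbours in this order, had tumors that did not overlap.

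Erbb3 (chr10:128567523-128589652), the receptor that recruits PI3K most directly, stood at 2.61, 5.06 and 2.63 CPM in BURP-19NE. In BURP-16SR it was 1.70, 1.86 and 0.560 CPM, from 20, 24 and 8 counts. The Ba/Sq tumors ranged from 48.3 to 301 CPM with a median of 142. All 6 tumors outside the Ba/Sq group were below all 18 Ba/Sq tumors, with a gap of nearly an order of magnitude between the highest of the former and the lowest of the latter. The fitted level was 46.1-fold lower in BURP-19NE (log2 fold change -5.53, SE 0.53, adjusted p = 8.77e-08) and 111-fold lower in BURP-16SR (log2 fold change -6.79, SE 0.62, adjusted p = 4.52e-08). The lowest Ba/Sq value, 48.3 CPM, came from replicate 3 of BURP-21BaSq.

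Erbb2 (chr11:98412470-98437716), the co-receptor without a ligand, followed Erbb3 with smaller changes. Its level was 39.6, 43.1 and 37.6 CPM in BURP-19NE. BURP-16SR had 16.5, 20.1 and 19.2 CPM, and the Ba/Sq tumors 52.8 to 156 CPM with a median of 85.6. Here too the groups did not overlap, and BURP-16SR lay below BURP-19NE. Erbb2 fell by 1.17 on the log2 scale in BURP-19NE (SE 0.31, adjusted p = 0.00676) and by 2.23 in BURP-16SR (SE 0.36, adjusted p = 9.27e-05). When counts were summed per line, so that each line was 1 sample, the BURP-19NE difference no longer passed (adjusted p = 0.114).

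Erbb4 (chr1:68032186-69108059), the second neuregulin receptor, was at the limit of detection. All 24 tumors together held 67 counts of it, 7 tumors held none, and 17 had 3 counts or fewer. The highest count was 15, in replicate 3 of BURP-17BaSq, and the highest level was 0.895 CPM, from 2 counts in the library rich in ribosomal RNA. Erbb4 was too low to be tested in any comparison, so 9 of the 10 genes were tested.

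Tgfa, the high-affinity Egfr ligand that keratinocytes make for themselves, was the ligand with the largest difference between subtypes. It was at 0.421, 0.158 and 0.318 CPM in BURP-19NE, from 10, 3 and 7 counts. The pooled level of these 3 tumors was 0.309 CPM with an exact 95% Poisson interval of 0.189 to 0.477, which covers counting error only. In BURP-16SR it was 15.3, 9.75 and 20.1 CPM, and in the Ba/Sq tumors 35.3 to 150.4 CPM with a median of 85.4. The 3 groups were fully separated in the order Ba/Sq, BURP-16SR, BURP-19NE. The fitted level was 266-fold lower in BURP-19NE than in Ba/Sq (log2 fold change -8.06, SE 0.62, adjusted p = 2.38e-09) and 5.35-fold lower in BURP-16SR (log2 fold change -2.42, SE 0.43, adjusted p = 0.00026).

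Nrg1 (chr8:31814551-32884029), the ligand of Erbb3 and Erbb4, was also lower in both lines. BURP-19NE had 27.5, 31.3 and 34.6 CPM and BURP-16SR 15.0, 41.4 and 8.74 CPM. The Ba/Sq tumors ranged from 51.4 to 249 CPM with a median of 111, above all 6. Nrg1 fell by 1.95 on the log2 scale in BURP-19NE (SE 0.40, adjusted p = 0.000708) and by 2.41 in BURP-16SR (SE 0.49, adjusted p = 0.00102). Neither difference passed with counts summed per line (adjusted p = 0.0894 and 0.0546).

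The remaining ligands showed no loss in BURP-16SR, and Ereg and Btc were higher there. Ereg, a low-affinity ligand of Egfr and Erbb4, stood at 288, 83.8 and 446 CPM in BURP-16SR and at 87.8, 58.4 and 112 CPM in BURP-19NE. The Ba/Sq tumors ranged from 2.37 to 251 CPM with a median of 28.1. Replicates 1 and 3 of BURP-16SR were above all 18 of them, and replicate 2 and the BURP-19NE tumors lay within their range. The log2 fold change was 2.57 in BURP-16SR (SE 0.87, adjusted p = 0.0351) and 0.88 in BURP-19NE (SE 0.96, adjusted p = 0.502). The BURP-16SR call for Ereg was lost without that line's replicate 1 (adjusted p = 0.111) or replicate 3 (0.216), without BURP-21BaSq (0.0572), BURP-24BaSq (0.0628) or BURP-25BaSq (0.0740), and with counts summed per line (0.342).

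Btc, a ligand of Egfr and Erbb4, had 51.4, 23.1 and 94.7 CPM in BURP-16SR. BURP-19NE had 14.4, 20.9 and 32.3 CPM and the Ba/Sq tumors 0.297 to 31.6 CPM with a median of 9.16. Replicates 1 and 3 of BURP-16SR and replicate 3 of BURP-19NE were above every Ba/Sq tumor. The log2 fold change was 2.53 in BURP-16SR (SE 0.72, adjusted p = 0.0132) and 1.18 in BURP-19NE (SE 0.77, adjusted p = 0.248). The call in BURP-16SR was lost without its replicate 3, the tumor with the most Btc (log2 fold change 1.88, adjusted p = 0.148), and with counts summed per line (adjusted p = 0.279). The fibroblast gene sum moved differently within this line, at 598 CPM in replicate 3 and 20130 CPM in replicate 2, the tumors with the most and the least Ereg and Btc, and its part in either result was not tested.

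Areg, the most abundant ligand per length in both lines, stood at 109, 30.9 and 133 CPM in BURP-16SR and 86.0, 52.7 and 97.6 CPM in BURP-19NE, against 1.63 to 343 CPM in Ba/Sq with a median of 20.8. All 6 tumors lay within the Ba/Sq range. Areg did not pass in either comparison (log2 fold change 0.97, SE 0.99, adjusted p = 0.508 in BURP-16SR and 0.72, SE 0.995, adjusted p = 0.603 in BURP-19NE), but it did in both when BURP-18BaSq, the Ba/Sq line with the most Areg, was left out (2.09, adjusted p = 0.0224 and 1.89, adjusted p = 0.0258). Hbegf, an Egfr and Erbb4 ligand that stays partly on the cell surface, had 133, 68.9 and 116 CPM in BURP-16SR and 48.3, 23.9 and 22.4 CPM in BURP-19NE, both within the Ba/Sq range of 18.5 to 211 CPM. Its log2 fold change was 0.32 (SE 0.59, adjusted p = 0.731) in BURP-16SR and -1.47 (SE 0.67, adjusted p = 0.0972) in BURP-19NE. The latter passed without BURP-12BaSq (-1.70, adjusted p = 0.0255) and by DESeq2 (-1.50, adjusted p = 0.0324).

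In all, 4 of the 9 genes tested were called in BURP-19NE against Ba/Sq, all lower, where a call needs an adjusted p under 0.05 and a change above 2-fold. Of all 20995 genes tested, 24.3% were called, and 15.0% were called lower. An edgeR fit of all 24 tumors with a term per line also called Areg (1.79, adjusted p = 0.000441), Ereg (1.85, adjusted p = 0.000991) and Btc (1.79, adjusted p = 0.000732) higher in BURP-19NE. It called Hbegf lower there (-1.18, adjusted p = 0.00349) and Areg higher in BURP-16SR (1.996, adjusted p = 0.000175). Its p-values measure the spread between grafts. In BURP-16SR against Ba/Sq 6 of the 9 were called, against 19.2% of all 21028 genes. Of these, 4 were lower and 2 higher, where 8.62% of all genes were lower and 10.5% higher. Both comparisons use the same 18 Ba/Sq tumors. The basal and squamous markers moved with both, since all 10 were lower in each line, and 5 of the 8 fibroblast markers were higher in BURP-16SR. In that line all 4 B cell markers were also higher (sum 218.6, 6.42 and 1.19 CPM against 0.306 to 7.51 in Ba/Sq), as were 3 of 6 endothelial markers (sum 237.4 to 349 against 28.8 to 403 CPM) and 3 of 5 smooth muscle markers (sum 44.6 to 274 against 11.6 to 124.4 CPM). In BURP-19NE 6 of 7 skeletal muscle markers were higher, with a sum of 1895, 15.2 and 34.2 CPM against 7.39 to 245 CPM in Ba/Sq, and all 4 neutrophil markers tested were lower (sum 1.79 to 2.90 against 1.74 to 98.2 CPM). The part of any of these cell types in the differences was not tested.

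**Figure D2:**
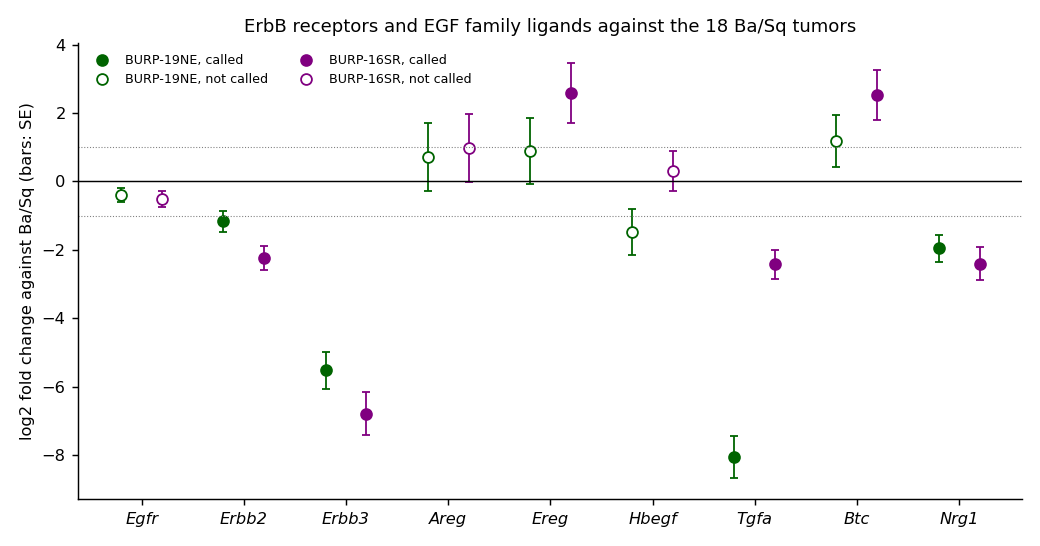
Fitted log2 fold change of each of the 9 tested genes against the 18 Ba/Sq tumors (y axis, bars are standard errors), for BURP-19NE in green and BURP-16SR in purple. Filled points were called and dotted lines mark the 2-fold limit, and Erbb2, Erbb3, Tgfa and Nrg1 are filled below zero for both lines whereas Ereg and Btc are filled above zero for BURP-16SR alone, although BURP-16SR and BURP-19NE did not differ by the test in either (adjusted p = 0.0545 and 0.0785).

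Set against each other, the 2 lines outside the Ba/Sq group differed most in Tgfa. BURP-16SR had 5.68 more of it than BURP-19NE on the log2 scale (SE 0.46, adjusted p = 0.000826). Hbegf was higher in BURP-16SR by 1.84 (SE 0.38, adjusted p = 0.0124) and Erbb2 lower by 1.02 (SE 0.14, adjusted p = 0.00362). These were 3 of the 9 genes tested, against 23.6% of all 17556 genes. Ereg (1.74, SE 0.57, adjusted p = 0.0545) and Btc (1.39, SE 0.52, adjusted p = 0.0785) did not pass, and both passed by DESeq2 and without BURP-16SR replicate 2, the tumor with the largest fibroblast sum. Erbb3 differed by -1.22 (SE 0.54, adjusted p = 0.123), Areg by 0.29, Nrg1 by -0.41 and Egfr by -0.08, none of which passed. Without BURP-16SR replicate 2 Nrg1 passed as well (-1.30, adjusted p = 0.0258). The Hbegf call was lost without BURP-19NE replicate 2 or 3 (adjusted p = 0.0561 and 0.0503), and Erbb2 fell just under the 2-fold limit without BURP-16SR replicate 1 or BURP-19NE replicate 2 (-0.98 in both).

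BURP-24BaSq and BURP-16SR are the pair whose growth under cisplatin was compared in the study. BURP-24BaSq had 188, 163 and 195 CPM of Erbb3 and 97.1, 76.1 and 94.6 CPM of Erbb2. Tgfa in that line stood at 104, 109 and 101 CPM, and Nrg1 at 110.2, 98.3 and 77.7 CPM. All 4 genes were higher than in BURP-16SR, by 6.995 (SE 0.45, adjusted p = 0.000115), 2.21 (SE 0.17, adjusted p = 0.000204), 2.75 (SE 0.26, adjusted p = 0.000451) and 2.06 (SE 0.56, adjusted p = 0.0267) on the log2 scale. Areg was lower in BURP-24BaSq, at 20.9, 24.6 and 9.30 CPM (log2 fold change -2.36, SE 0.59, adjusted p = 0.0193), and so was Ereg, at 48.0, 72.3 and 23.0 CPM (-2.56, SE 0.66, adjusted p = 0.0216). Egfr (0.55, adjusted p = 0.101), Hbegf (0.60, adjusted p = 0.165) and Btc (-1.52, adjusted p = 0.0634) did not pass, although Btc did by DESeq2 (adjusted p = 0.0176), with all 24 tumors in 1 fit (0.0477) and without BURP-16SR replicate 2 (0.0169). In total 6 of 9 genes were called, against 29.0% of all 18283 genes. In the same comparison all 10 basal and squamous markers were higher in BURP-24BaSq, while 6 of 6 endothelial and 3 of 8 fibroblast markers were lower, and their part was not tested. The Areg, Ereg and Nrg1 calls rested on few tumors. Areg was lost without BURP-16SR replicate 1 or any BURP-24BaSq replicate (adjusted p from 0.0524 to 0.0672), Ereg without BURP-16SR replicate 1 or BURP-24BaSq replicates 1 or 3, and Nrg1 without BURP-16SR replicate 1 or any BURP-24BaSq replicate.

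Levels of different genes are compared per kb of annotated exons, with all exons of a gene joined, so any order of genes depends on this length. The joined exons were 11.33 kb for Egfr and 6.016 kb for Erbb3. In CPM without this scaling, the Ba/Sq mean of Egfr (199.1) was above that of Erbb3 (160.6). Per kb the receptor order changed with the subtype. Erbb3 was first of the 4 receptors in 14 of the 18 Ba/Sq tumors, Egfr in 3 and Erbb2 in 1. In all 3 BURP-16SR and all 3 BURP-19NE tumors Egfr came before Erbb2, and Erbb2 before Erbb3. The mean per kb in Ba/Sq was 26.7 ± 11.6 CPM for Erbb3, 17.7 ± 6.40 for Erbb2 and 17.6 ± 4.24 for Egfr (SD, n = 18 tumors). In BURP-19NE it was 0.571 ± 0.234, 7.70 ± 0.533 and 13.1 ± 0.531 CPM per kb (SD, n = 3), and in BURP-16SR 0.228 ± 0.118, 3.57 ± 0.357 and 11.7 ± 3.16 CPM per kb (SD, n = 3). Erbb4 was last in every tumor.

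The ligand that led per kb depended on the line. Areg led in all 3 tumors of BURP-16SR, BURP-17BaSq, BURP-18BaSq and BURP-19NE, with a mean share of the summed ligand level of 40.5%, 36.1%, 58.3% and 64.3%. Hbegf led in the 3 tumors of BURP-24BaSq, with a mean share of 38.0%, and in 2 tumors of BURP-25BaSq. Tgfa led in the 3 tumors of BURP-21BaSq, with 30.8%, while it made 0.0449% of the ligand level in BURP-19NE. BURP-12BaSq was led by Nrg1 in 2 tumors and by Tgfa in 1. The summed ligand level per kb varied widely between lines, from a mean of 22.8 ± 4.34 CPM in BURP-12BaSq through 42.3 ± 3.21 in BURP-21BaSq, 67.9 ± 7.05 in BURP-25BaSq, 91.1 ± 24.6 in BURP-24BaSq, 100.2 ± 27.1 in BURP-19NE, 120 ± 33.9 in BURP-17BaSq and 180 ± 99.8 in BURP-16SR to 238 ± 142 in BURP-18BaSq (SD, n = 3 each).

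**Figure D3:**
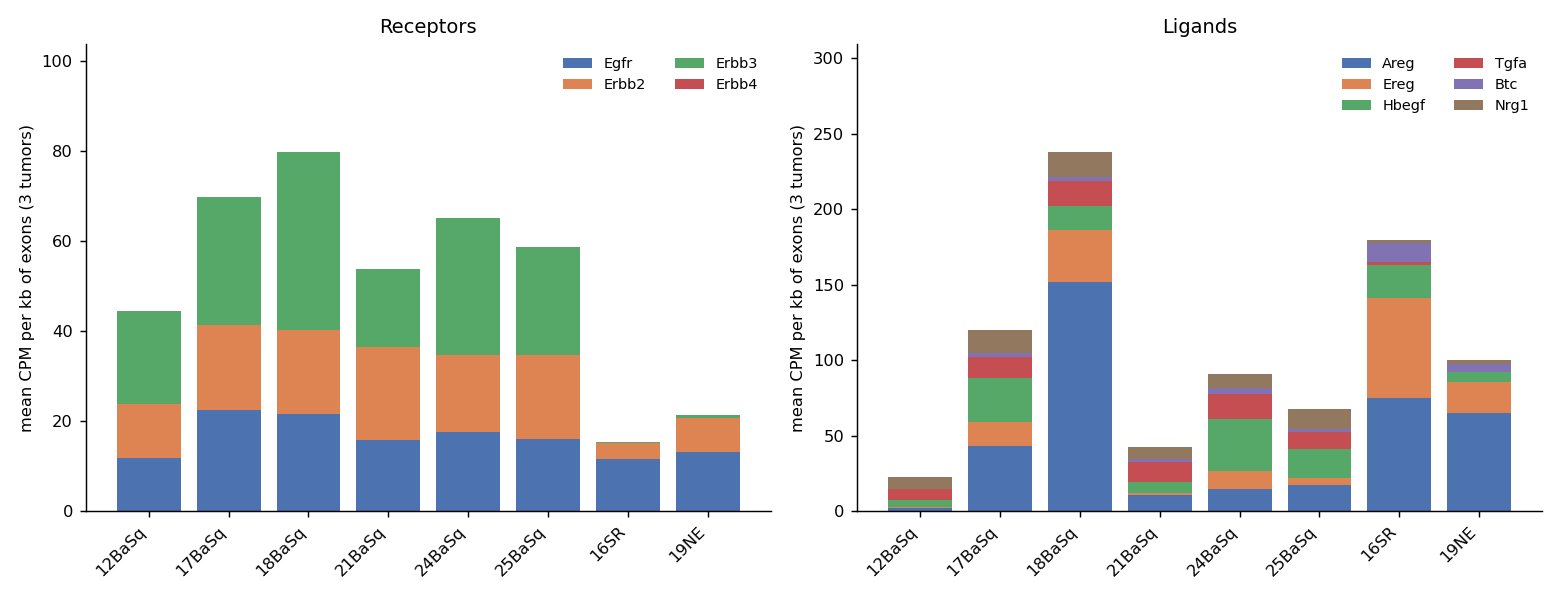
Mean level of the receptors (left) and ligands (right) of each line in CPM per kb of annotated exons, stacked by gene over 3 tumors. Erbb3 fills much of the receptor bar in each Ba/Sq line and is barely visible in BURP-16SR and BURP-19NE, while Areg fills most of the ligand bar in BURP-18BaSq and BURP-19NE.

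Within the Ba/Sq group 5 of the 6 ligands and 1 of the 3 receptors tested differed among the lines. The F test over the 6 lines called 6 of the 9 genes at an adjusted p under 0.05, against 50.5% of all 20523 genes, so a call was common in this comparison. The 6 were the Egfr ligands Areg (adjusted p = 4.29e-05), Hbegf (0.000161), Ereg (0.000181) and Btc (0.000602), together with Egfr (0.00410) and Nrg1 (0.0294). Tgfa (0.0856), Erbb3 (0.166) and Erbb2 (0.572) did not pass. Tgfa passed when BURP-25BaSq replicate 3 was left out (0.0106) or counted with BURP-21BaSq (0.00905), by DESeq2 and without BURP-17BaSq replicate 2. Nrg1 was lost without BURP-12BaSq replicate 1 or 3, BURP-17BaSq replicate 3 or BURP-21BaSq replicate 2 (adjusted p from 0.0524 to 0.0613), and Erbb3 passed without BURP-18BaSq replicate 3 (0.0476).

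Areg and Ereg set the lines apart in nearly the same order. Areg was 343, 60.1 and 149.8 CPM in BURP-18BaSq and 36.5, 63.4 and 57.8 CPM in BURP-17BaSq. The female lines had 27.5, 20.6 and 14.8 CPM (BURP-25BaSq), 20.9, 24.6 and 9.30 CPM (BURP-24BaSq) and 13.8, 11.1 and 14.1 CPM (BURP-21BaSq). BURP-12BaSq had 4.002, 3.10 and 1.63 CPM, below every other tumor of the series. Ereg was 251, 44.4 and 135.5 CPM in BURP-18BaSq, 44.5, 72.7 and 77.7 CPM in BURP-17BaSq and 48.0, 72.3 and 23.0 CPM in BURP-24BaSq. It was 33.3, 17.0 and 8.32 CPM in BURP-25BaSq and 9.27, 4.37 and 6.91 CPM in BURP-21BaSq. BURP-12BaSq was again at the bottom with 2.50, 4.46 and 2.37 CPM, overlapping BURP-21BaSq by 1 tumor.

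Over the 18 Ba/Sq tumors the log2 levels of Areg and Ereg had a Pearson r of 0.916 and a Spearman rho of 0.909. The r was 0.861 without BURP-12BaSq and 0.870 once line means were removed, so tumors of 1 line varied in the same way. It was 0.918 over all 24 tumors. The points are not independent, since 3 tumors share each donor and each library's depth enters both genes. Egfr followed Areg across lines (r 0.824, rho 0.833) but hardly within them (r 0.160). Btc, from the same row of genes, had an r of 0.685 with Areg, which was 0.176 without BURP-12BaSq.

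**Figure D4:**
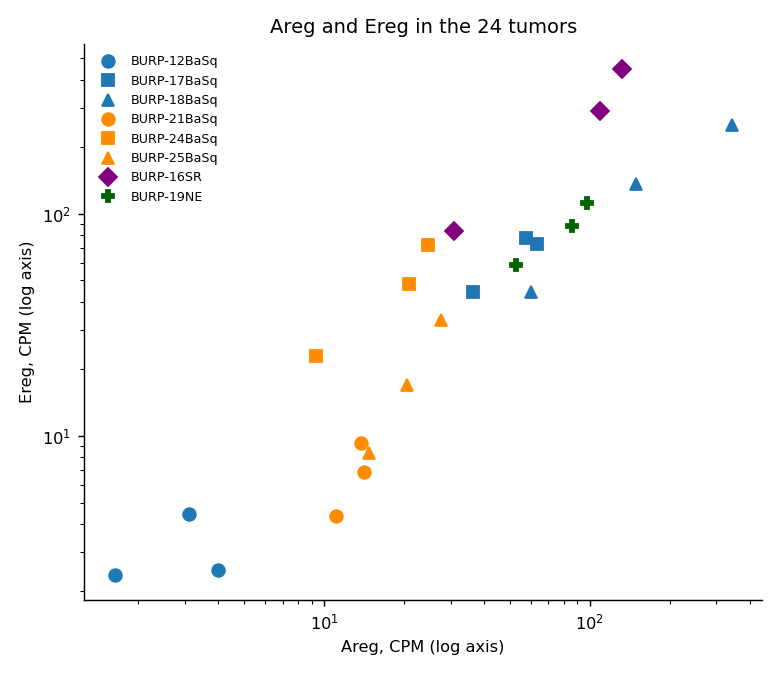
Areg against Ereg in CPM on log axes, with 1 point per tumor and a shape and color per line (blue male Ba/Sq, orange female Ba/Sq, purple BURP-16SR, green BURP-19NE). The 24 tumors lie along 1 diagonal from BURP-12BaSq at 1.63 to 4.002 CPM of Areg up to BURP-18BaSq replicate 1 at 343 CPM, with BURP-16SR and BURP-24BaSq towards higher Ereg.

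BURP-12BaSq was low in all 5 Egfr ligands. Btc was at 0.334, 0.297 and 0.555 CPM there, from 8, 7 and 15 counts, and the other 15 Ba/Sq tumors ranged from 4.03 CPM upwards. Hbegf was 27.1, 21.2 and 18.5 CPM and Tgfa 51.6, 46.7 and 35.3 CPM. For Btc, Areg and Hbegf the line did not overlap the other Ba/Sq lines, whereas Ereg overlapped BURP-21BaSq and Tgfa overlapped BURP-25BaSq. Against the other 5 lines together, the log2 fold change of Btc was -4.91 (SE 0.71, adjusted p = 0.000616). It was -4.32 for Areg (SE 1.25, adjusted p = 0.0423) and -4.19 for Ereg (SE 1.20, adjusted p = 0.0406). Hbegf stood at -2.21 (SE 0.57, adjusted p = 0.0250) and Tgfa at -1.05 (SE 0.31, adjusted p = 0.0457). These were 5 of 9 genes, all lower, against 4.59% of all 20523 genes called and 2.48% called lower. Egfr stood at -0.67 (adjusted p = 0.0355), under the 2-fold limit, and Nrg1 at -0.64 (adjusted p = 0.263). Btc was the only 1 of the 5 calls left when any BURP-12BaSq tumor was taken out, and Areg, Ereg and Tgfa were lost when no filter on low counts was used. The line also had the lowest fibroblast sum of the Ba/Sq lines by its median of 224 CPM, and the part of that in these values was not tested.

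BURP-18BaSq was called for Areg, with a log2 fold change of 3.11 against the other 5 lines (SE 0.65, adjusted p = 0.00338), 1 of 9 genes against 10.1% of all genes. Without its replicate 1 the call was lost (2.28, adjusted p = 0.101). Ereg was at 2.34 (SE 0.80, adjusted p = 0.0523). In BURP-17BaSq, BURP-21BaSq, BURP-24BaSq and BURP-25BaSq, edgeR on the 18 Ba/Sq tumors called 0 of 9 genes against the other lines. The share of all genes called was 1.07%, 0.0195%, 1.65% and 0.273%. At an unadjusted p under 0.05 the counts in these 4 lines were 1, 2, 1 and 0, and DESeq2 called 1 gene in BURP-21BaSq. The edgeR fit of all 24 tumors with a term per line called 3, 2, 2 and 0.

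Hbegf and Nrg1 spanned a narrower range than Areg. Hbegf, highest in BURP-24BaSq (195.5, 190.4 and 115 CPM) and BURP-17BaSq (88.5, 211 and 125 CPM), was lowest in BURP-12BaSq and in BURP-21BaSq, where it was 37.4, 31.3 and 36.9 CPM. BURP-18BaSq (79.2, 61.4 and 87.1 CPM) and BURP-25BaSq (129, 54.2 and 97.5 CPM) lay between. Nrg1 reached its highest level, 249 CPM, in replicate 2 of BURP-18BaSq, and its lowest Ba/Sq level, 51.4 CPM, in replicate 1 of BURP-21BaSq.

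Male and female Ba/Sq lines, 9 tumors and 3 lines each, were compared by edgeR on these tumors alone. They did not differ by the test in any of the 9 genes, against 2.31% of all 17922 genes called. Areg came closest, with a log2 fold change of 2.22 for male over female (SE 0.74, adjusted p = 0.0840), and it was the 1 gene at an unadjusted p under 0.05. The tumors of a line share a donor, and with the line as a random effect (limma-voom) the log2 fold change of Areg was 0.50 (adjusted p = 0.946). With counts summed per line it was 2.005 (adjusted p = 0.800). By DESeq2, which like the edgeR fit takes tumors as independent, Areg passed (2.24, adjusted p = 0.0132). The male lines held both the highest and the lowest Areg line. Without the lowest, BURP-12BaSq, Areg (2.79, adjusted p = 0.00231) and Ereg (2.09, adjusted p = 0.0369) passed. Without the highest, BURP-18BaSq, Areg stood at 0.63 (adjusted p = 0.630) and Ereg at 0.42 (adjusted p = 0.819). Ereg with all lines was at 1.53 (SE 0.78, adjusted p = 0.249). In the fit of these tumors alone the other 7 genes had log2 fold changes from -0.55 to 0.40. The edgeR fit of all 24 tumors called 1 of these 7. Areg (0.83, adjusted p = 0.0731) and Ereg (0.73, adjusted p = 0.170) did not pass in that fit.

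The rest of the pathway was followed in lists of related genes. Of the other EGF family ligands (Egf, Epgn, Nrg2, Nrg3 and Nrg4), 4 were high enough to be tested against Ba/Sq. Epgn, the neighbour of Ereg, fell in both lines, by 2.40 on the log2 scale in BURP-19NE (SE 0.86, adjusted p = 0.0349) and by 2.74 in BURP-16SR (SE 0.92, adjusted p = 0.0333). Epgn was the 1 gene of 4 called in each, where 24.3% (BURP-19NE) and 19.2% (BURP-16SR) of all genes were called. Its mean was 5.85 ± 5.48 CPM in Ba/Sq (SD, n = 18), 1.10 ± 0.224 in BURP-19NE and 0.832 ± 0.609 in BURP-16SR (SD, n = 3), so Epgn and Ereg, adjacent on the chromosome, differed from Ba/Sq in opposite directions in BURP-16SR. The Epgn call was lost in 5 of 17 alternatives for BURP-19NE, among them the removal of any 1 of its tumors (adjusted p from 0.0955 to 0.127) or of BURP-24BaSq (0.0550), and in 6 of 17 for BURP-16SR, among them the removal of any 1 of its tumors (0.0509 to 0.154), of BURP-21BaSq (0.0512) or of BURP-24BaSq (0.0581). In BURP-12BaSq, Egf was higher than in the other Ba/Sq lines (1.57, SE 0.35, adjusted p = 0.0114), at 6.24 ± 1.02 CPM, and Nrg2 lower (-2.65, SE 0.64, adjusted p = 0.0183), at 0.163 ± 0.0491 CPM. Both were lost without any 1 of the BURP-12BaSq tumors (adjusted p from 0.0577 to 0.0842 for Egf and 0.0722 to 0.139 for Nrg2).

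The release of ligands was followed by 5 genes, the proteases Adam10, Adam17 and Furin and the iRhom carriers Rhbdf1 and Rhbdf2, which take Adam17 to the cell surface. In BURP-19NE 1 of the 5 was called (24.3% of all genes), Rhbdf2, at 4.50 ± 0.534 CPM against 29.9 ± 21.6 CPM in Ba/Sq (log2 fold change -2.70, SE 0.58, adjusted p = 0.00116). In BURP-16SR 0 of the 5 was called by edgeR (19.2% of all genes) or DESeq2, although Furin had an adjusted p of 0.0259 by edgeR at a change under 2-fold. Between BURP-16SR and BURP-19NE, Rhbdf2 was higher in the former by 2.92 (SE 0.30, adjusted p = 0.00150) and Furin by 1.34, and Rhbdf1 was lower by 1.13.

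Among 8 inhibitors of the receptors, different genes were called in the 2 lines, 1 in BURP-19NE (24.3% of all genes) and 2 in BURP-16SR (19.2% of all genes). Lrig1, a membrane protein that sends ErbB receptors for degradation, rose in BURP-19NE, at 189 ± 62.8 CPM against 33.7 ± 27.0 CPM in Ba/Sq (log2 fold change 2.50, SE 0.51, adjusted p = 0.000761), 1 call of 8. Errfi1 (Mig6), a feedback inhibitor of the Egfr kinase, rose in BURP-16SR, at 241 ± 75.2 CPM against 62.8 ± 36.8 CPM (2.01, SE 0.37, adjusted p = 0.000415), and Lrig3 fell there (-1.72, SE 0.62, adjusted p = 0.0455), a call lost in 9 of 17 alternatives, among them the removal of BURP-16SR replicate 1 (0.206) or 3 (0.177), of BURP-25BaSq replicate 3 (0.0550) and of any Ba/Sq line but BURP-18BaSq (0.0521 to 0.0798). The difference between the 2 lines was itself called for both, with Errfi1 higher in BURP-16SR by 2.62 (SE 0.32, adjusted p = 0.00236) and Lrig1 lower by 1.48 (SE 0.27, adjusted p = 0.00766). Of 20 adaptors and kinases that carry the signal, 2 were called in BURP-19NE (24.3% of all genes), both lower, among them Akt2 (-1.12, SE 0.27, adjusted p = 0.00276). In BURP-16SR 3 of the 20 were called (19.2% of all genes), with Map2k1 (MEK1) higher (1.27, SE 0.22, adjusted p = 0.000209) and Gab1, an adaptor of Egfr, lower (-1.92, SE 0.36, adjusted p = 0.000501). Epgn, Rhbdf2, Lrig1, Errfi1, Lrig3, Akt2, Map2k1 and Gab1 all lost their calls against Ba/Sq with counts summed per line (adjusted p from 0.0519 for Gab1 to 0.285 for Lrig3).

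Most of the ERK-induced genes that passed were higher in BURP-16SR and lower in BURP-19NE. Of 17 such genes, 7 were called in BURP-16SR against Ba/Sq, 6 of them higher, where 19.2% of all genes were called (median log2 fold change 0.64, against -0.03 over all genes). In BURP-19NE 8 were called, 6 of them lower, where 24.3% of all genes were called (median -0.23, against -0.14 over all genes). Spry4, a feedback inhibitor of receptor tyrosine kinase signaling, stood at 221 ± 77.0 CPM in BURP-16SR and 73.8 ± 26.2 CPM in BURP-19NE (SD, n = 3), against 7.09 ± 6.17 CPM in Ba/Sq (SD, n = 18). It was the strongest rise in both (5.03, adjusted p = 4.64e-08, and 3.40, SE 0.48, adjusted p = 1.51e-05). In BURP-16SR the AP-1 subunit gene Fosl1 (2.79), the ERK phosphatase gene Dusp5 (2.50) and Spry2 (2.41) rose as well. In BURP-19NE Spred2 rose (1.53) while the ephrin receptor gene Epha4 (-7.23) and the stress response gene Ier3 (-3.29) fell. Set against each other, BURP-16SR was higher in 11 of the 17 genes and lower in 0 by edgeR and DESeq2, where 23.6% of all genes were called (median 1.54, against 0.06 over all genes), including Ier3 (3.75, SE 0.26), Spry2 (1.75, SE 0.16), the ETS factor gene Etv4 (4.76, SE 0.47) and Ccnd1 (1.54, SE 0.19). The counts depended on single tumors and on the unit. The 11 became 6 without BURP-16SR replicate 1 or BURP-19NE replicate 2 and 7 without BURP-19NE replicate 3. With counts summed per line, 1 gene stayed higher and 1 lower for BURP-16SR, and 2 higher and 1 lower for BURP-19NE, and without BURP-19NE replicate 2 the 6 lower genes of that line became 4.

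**Figure D5:**
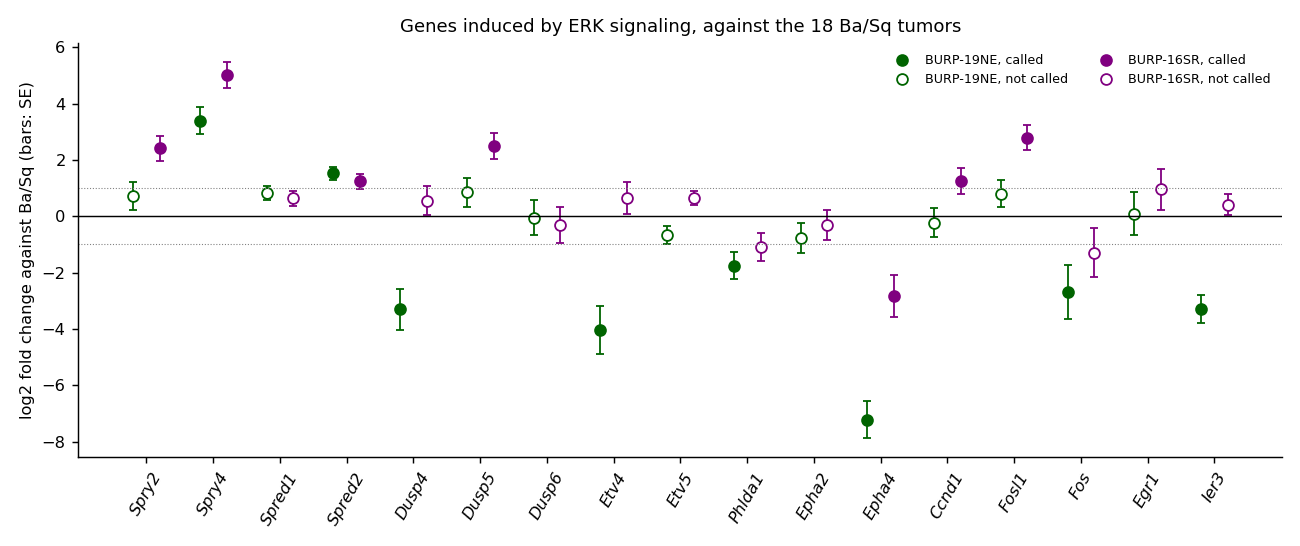
Fitted log2 fold change against the 18 Ba/Sq tumors (y axis, bars are standard errors) of 17 genes known to be induced by ERK, for BURP-19NE in green and BURP-16SR in purple. Filled points were called, 6 above and 1 below zero in BURP-16SR and 2 above and 6 below zero in BURP-19NE.

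BURP-24BaSq was lower than BURP-16SR in 8 of these 17 genes and higher in none by edgeR, where 29.0% of all genes were called, with Spry4 at -5.89 (SE 0.36, adjusted p = 9.41e-05), Fosl1 at -3.13 (SE 0.35), Spry2 at -2.98 (SE 0.21) and Ccnd1 at -1.92 (SE 0.24), while DESeq2 called 8 lower and 3 higher. BURP-12BaSq was lower than the other Ba/Sq lines in 5 of the 17 and higher in none, where 4.59% of all genes were called. Among the 5 were Dusp5 (-2.46, SE 0.43, adjusted p = 0.00251), Etv4 (-2.20, SE 0.58, adjusted p = 0.0279), Phlda1 (-1.50, SE 0.39, adjusted p = 0.0260) and Fos (-2.92, SE 0.80, adjusted p = 0.0341). Any link to the ligand levels of that line was not tested. The median over the list there was -1.37, against -0.09 over all genes. This count was 1 or 2 when a BURP-12BaSq tumor was left out and 9 by DESeq2. The F test among the Ba/Sq lines called 14 of the 17, against 50.5% of all genes.

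The genes whose log2 level was most like that of each family member over the 18 Ba/Sq tumors were ranked by Pearson r among 20523 genes. Areg was followed by Plaur, the urokinase receptor gene (0.946), Krt18, a simple epithelial keratin (0.932), and Hmga1 (0.930). Ereg was followed by Tex15 (0.932), 3110040N11Rik (0.928) and Areg itself (0.916), the only member of the family in the leading 3 of another. Erbb3 was nearest to Esrp2, an epithelial splicing regulator (0.899), and Prickle3 (0.888) and Dedd2 (0.874) came next. Egfr was nearest to Kif1c (0.910), Erbb2 to Afdn (0.838), Hbegf to Arpc3 (0.898), Tgfa to the antisense RNA Tmcc3os (0.860), Btc to the claudin gene Cldn1 (0.902, although its rho was 0.688) and Nrg1 to Gm8523 (0.782). These r values are descriptions over tumors that share donors 3 by 3.

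Of the 10 genes, 4 overlap an antisense partner in exons, and the strand setting of the counting is not given in the sources used here, so reads of the partners cannot be assigned with certainty. The overlap was 141 bp for Ereg with Gm19610, 118 bp for Tgfa with Gm43917, 482 bp for Nrg1 with Gm26578 and 9 bp for Erbb2 with Mien1. Over the 24 tumors Mien1 had 7091 counts against 33924 for Erbb2, Gm19610 had 247 against 29434 for Ereg, Gm43917 had 1505 against 27673 for Tgfa, and Gm26578 had 2068 against 41733 for Nrg1.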

How the data were processed

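RNA of 24 subcutaneous tumors was sequenced after depletion of ribosomal RNA from 500 ng of total RNA. Per the study's methods and the submitters' processing notes, the authors called bases with CASAVA 1.8.2, aligned reads with STAR 2.6.0a to GRCm38 with a GENCODE annotation and estimated counts with RSEM 1.3.1. The authors deposited expected counts per gene, not normalized. Of these values 12.5% were not whole numbers, and all were rounded here. Groups followed the line named in the labels, and the subtype of each line followed the study. Codes in the tumor titles that the labels do not explain were not modelled, except as an alternative in the comparison of male and female lines.

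Counts were fitted with edgeR 4.0.16 in R 4.3.3 (TMM, filterByExpr over the groups compared, glmQLFit and glmQLFTest), with Benjamini-Hochberg adjustment over all genes tested. The fits held no term for the lines within a pooled group. A call needed an adjusted p below 0.05 together with a change of more than 1 on the log2 scale, or, in the F test among Ba/Sq lines, the adjusted p alone. The fit was tried on simulated counts drawn with a single spread and without line effects. That trial cannot show the rate of false calls where tumors share a donor. DESeq2 1.42.0 and limma 3.58.1 served as alternatives. CPM used TMM factors over all tumors, and correlations used log2 CPM (prior count 2). Lengths came from a GRCm38 annotation that matched 53274 of 53465 genes. A count of 3 was taken as the floor. Intervals cover counting error only. The number of tumors per line, 3, limits the precision, as does a depth of 9295708 counts in the shallowest library.

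The text names the 10 family members in each comparison, up to 4 genes per pathway list by smallest adjusted p, the genes most alike in level by Pearson r over the 18 Ba/Sq tumors, and genes that overlap a member. Members and lists were chosen with earlier results of these data known. One marker result is not reported here.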

Additional observations from a re-analysis of the deposited data

Results flagged for a closer look

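Levels of each gene were screened for single tumors far from the rest of their group, by Dixon's gap ratio over the 9 male or the 9 female Ba/Sq tumors, in 20 groups in all. Chance alone marks about 1 group in 20, and 2 exceeded the limit. Erbb4 stood at 0.740 CPM in replicate 3 of BURP-17BaSq, from 15 counts, above the other male Ba/Sq tumors. Erbb3 stood at 48.3 CPM in replicate 3 of BURP-21BaSq, with the next female Ba/Sq tumor at 120.7 CPM. That tumor had the highest summed fibroblast level of its line (2730 CPM) and the lowest summed basal and squamous level (11280 CPM), and their part in the value was not tested.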

How the results depend on the processing

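Of 155 comparison counts under alternatives, 130 stayed within 1.5 times the count reported, and 25 did not. With all 24 tumors in 1 fit, the calls went from 4 to 8 for BURP-19NE against Ba/Sq, from 0 to 1 for male against female lines, and against the other Ba/Sq lines from 0 to 3 for BURP-17BaSq, 1 to 3 for BURP-18BaSq, 0 to 2 for BURP-21BaSq and 0 to 2 for BURP-24BaSq. With counts summed per line they went to 2 for BURP-19NE and from 6 to 3 for BURP-16SR against Ba/Sq, where fewer samples entered. DESeq2 moved them from 3 to 5 for BURP-16SR against BURP-19NE, from 0 to 1 for male against female lines, from 1 to 2 for BURP-18BaSq and from 0 to 1 for BURP-21BaSq, and DESeq2 size factors in edgeR gave 2 for BURP-18BaSq. Without a filter on low counts BURP-12BaSq kept 2 of 5 calls. Leaving out tumors or lines gave 4 to 5 calls for BURP-19NE and 4 to 7 for BURP-16SR against Ba/Sq, 1 (without BURP-19NE replicate 2) to 6 (without BURP-16SR replicate 2) between them, 3 to 7 for BURP-24BaSq against BURP-16SR (3 without BURP-16SR replicate 1 or BURP-24BaSq replicate 1 or 3), 0 to 2 for sex (2 without BURP-12BaSq), 5 to 7 in the F test, 1 to 5 for BURP-12BaSq (1 without any of its tumors) and 0 (without its replicate 1) to 2 (without its replicate 3) for BURP-18BaSq. The cause was not tested in any of these. Of the values of single genes, 832 stayed on their side of the threshold (or, for levels, within 1 SD), 47 lost their call, 29 gained one, and 2 changed sign, both between BURP-16SR and BURP-19NE and neither called. Egfr ran from -0.30 to 0.064 there (0.064 without BURP-16SR replicate 1) and Areg from -0.091 (without BURP-16SR replicate 3) to 0.69. Without TMM, 16 of 80 line means moved by more than 1 SD, 5 each in BURP-12BaSq (Egfr 133.8 to 161.6 CPM) and BURP-21BaSq (Tgfa 84.4 to 100.2), 3 in BURP-19NE (Egfr to 175.7, Erbb2 to 47.5, Nrg1 to 37.1), 2 in BURP-25BaSq (Erbb3 144.7 to 111.4, Egfr 181.7 to 138.8) and 1 in BURP-24BaSq (Tgfa 104.9 to 110.4). The median of all genes shifted by -0.14 in BURP-19NE against Ba/Sq, and by -0.17 with DESeq2 size factors. No paired analysis was possible because the labels do not say what the codes in the tumor titles mark, and BURP-16SR shares none with BURP-19NE or BURP-24BaSq. Codes that recur between other lines were not taken as pairs. Low counts limit Erbb4 in all tumors, and Tgfa in BURP-19NE and Btc in BURP-12BaSq.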

Other observations

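The genes that follow were chosen after their values were seen. The row of ligand genes on chromosome 5 has chemokine genes, Mthfd2l and Parm1 as neighbours. Mthfd2l, the nearest of these to Epgn, differed from Ba/Sq by less than 2-fold in both lines. By edgeR it stood at 0.85 in BURP-19NE (adjusted p = 0.000267) and -0.46 in BURP-16SR (adjusted p = 0.0482). It was called lower in BURP-16SR than in BURP-19NE (-1.27, adjusted p = 0.00616). In BURP-19NE against Ba/Sq, the neutrophil-attracting chemokine genes Ppbp (log2 fold change -11.03), Cxcl1 (-4.74), Cxcl2 (-5.83), Cxcl3 (-9.22) and Cxcl5 (-8.38) and the gene Parm1 (-5.82) were called lower by edgeR, in the line where Areg and Ereg lay within the Ba/Sq range, and Pf4 (-0.03) did not pass. Ppbp and Pf4, a pair of chemokine genes also made by platelets, lie in the same row. In BURP-16SR, Ppbp (-4.93, adjusted p = 0.00823) and Parm1 (-2.83, adjusted p = 0.0344) were called lower and Pf4 higher (2.63, adjusted p = 0.0125). Cxcl1 (-0.73), Cxcl2 (0.59), Cxcl3 (-0.32) and Cxcl5 (-2.26, adjusted p = 0.0619) did not pass there. Both comparisons against Ba/Sq share the 18 Ba/Sq tumors.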
